A study of Mus musculus with 2 samples.

Results

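The genes described here are developmental transcription factors outside the Hox clusters, taken as a list of 56 symbols from the Zic, Pax, Sox, Fox, LIM homeobox, Nkx, T-box, Irx, Otx, Pitx, Dlx, Msx, Gata, Tfap2 and smaller families, including Six2 and Six3. The table had a row for 54 of them, among 20720 gene symbols in all, and Lhx6 and Irx3 are not analysed here. Tbx3 and Prrx1 had 2 transcripts each and are represented by the transcript with the higher mean.

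The libraries were made from the RNA of purified small-intestinal villi, the finger-like projections covered by mature absorptive and secretory epithelium, of C57BL/6 mice. The control library is labelled Rosa26-CreERT2 Cdkn2a-/-, and the other Rosa26-CreERT2 Cdkn2a-/- Ring1a-/- Ring1bf/f (double knockout, dKO). Both genotypes thus carried the tamoxifen-inducible Cre from the broadly active Rosa26 locus and lacked Cdkn2a, and mice of both were killed 6 days after 3 tamoxifen injections. Ring1a was absent throughout life by the label, whereas Ring1b was a conditional allele. With 1 library per genotype there was no replicate and no test was possible, so each value below compares these 2 libraries only. Nothing in the labels gives the age of the animals or the number of animals behind a library.

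Polycomb repressive complex 1 (PRC1) is built on the ubiquitin ligases Ring1a (gene Ring1) and Ring1b (gene Rnf2), which mark histone H2A at CG-rich promoters. Its best known targets are the transcription factors that set the identity of tissues in the embryo, such as the neural, limb, kidney and heart regulators of this list. In an adult tissue that does not use them, these genes are kept silent. The adult gut epithelium uses other factors of the same families, among them Gata4, Gata6, Sox9 and Foxa genes.

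Depth was low. The control library held 775827 recovered reads and the dKO-labelled library 1058196, which is 1.36 times as many. The size factors of the deposited values scale the dKO-labelled library by 1.11 relative to the control, and every fold below uses them. Intervals are exact 95% Clopper-Pearson intervals of a ratio of reads and cover counting error only. Ring1 had 10 reads in each library and Rnf2 had 59 in the control and 82 in the other, a ratio of 1.25 (0.886 to 1.78). Neither value checks the deletion, because a count over a whole transcript does not show which exons were lost, so the second library is called dKO-labelled. The 10 enterocyte markers were detected in both libraries, with 10553 and 13887 reads. Xist had 80 and 1 reads and the Y-linked Ddx3y 0 and 131, so genotype and sex cannot be told apart in these libraries.

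The promoters of these genes were CG-rich. A RefSeq promoter (build GRCm38.p6, 250 bases before the gene start) was matched by symbol for 39 of the 54 genes. They held a median of 16 CG dinucleotides, with a range of 4 to 40, against a median of 11 over the 15057 matched genes of the table. At least 10 CG dinucleotides were present in 30 of 39 (76.9%), against 53.1% over the table. The GC box, GGGCGG or its complement CCGCCC, was found in 23 of 39 (59.0%), against 44.8% over the table and 32.9% of all 27025 promoters of this length. A match is a string of letters and not a bound site. Shown are the 4 matched promoters with the most dKO reads among genes that were near-silent in the control. They are given 5′ to 3′ on the strand of the gene, with each CG dinucleotide in capitals. Barx1 lies at chr13:48662786-48663035 on the + strand, Evx1 at chr6:52313248-52313497 (+), Foxl2 at chr9:98955357-98955606 (+) and Gata3 at chr2:9878601-9878850 (-). These 4 run from 40 CG dinucleotides in Barx1 and 22 in Foxl2 to 19 in Gata3 and 10 in Evx1, so promoters with fewer, down to 4, are not shown. The GC box is in those of Barx1, Foxl2 and Gata3 and not in that of Evx1. Sim2, Otx1 and Zic2 are named only.
Barx1: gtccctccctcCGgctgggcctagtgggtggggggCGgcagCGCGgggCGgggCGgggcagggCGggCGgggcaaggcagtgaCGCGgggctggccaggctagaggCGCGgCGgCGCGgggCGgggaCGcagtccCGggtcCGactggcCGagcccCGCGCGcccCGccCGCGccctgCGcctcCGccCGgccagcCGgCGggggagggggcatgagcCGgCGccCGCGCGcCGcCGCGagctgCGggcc
Evx1: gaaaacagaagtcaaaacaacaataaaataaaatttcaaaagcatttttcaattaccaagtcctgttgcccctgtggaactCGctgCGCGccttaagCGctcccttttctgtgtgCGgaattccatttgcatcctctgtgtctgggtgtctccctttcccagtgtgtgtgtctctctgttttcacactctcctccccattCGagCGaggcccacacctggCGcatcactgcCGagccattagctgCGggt
Foxl2: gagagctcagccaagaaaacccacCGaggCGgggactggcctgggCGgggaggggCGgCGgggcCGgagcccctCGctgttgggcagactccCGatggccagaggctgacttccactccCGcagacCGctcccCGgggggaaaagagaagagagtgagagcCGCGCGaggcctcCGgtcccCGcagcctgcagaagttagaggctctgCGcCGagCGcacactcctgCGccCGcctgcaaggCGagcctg
Gata3: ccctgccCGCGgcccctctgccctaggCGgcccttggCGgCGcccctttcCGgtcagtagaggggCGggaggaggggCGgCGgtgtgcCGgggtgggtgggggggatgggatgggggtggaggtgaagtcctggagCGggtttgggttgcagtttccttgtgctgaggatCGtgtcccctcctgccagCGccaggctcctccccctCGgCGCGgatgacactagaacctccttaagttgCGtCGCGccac

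Most of these factors were silent or nearly so in the control villi and many had reads in the dKO-labelled library. The control had a read for 20 of 54 (37.0%), against 59.2% of all genes, and the dKO-labelled library for 43 (79.6%), against 67.2%. There were 25 factors seen in the dKO-labelled library alone and 2, Sox21 and Hlx, seen in the control alone. Of the 34 factors with 0 control reads, 25 (73.5%) had a read in the dKO-labelled library, against 33.7% of all genes with 0 control reads. Of the 11 factors with 0 reads in the dKO-labelled library, 2 (18.2%) had a control read, against 17.6% of all genes. The dKO-labelled library was the deeper of the pair. Thinned by formula to the depth of the control, that library would be expected to show 41.2 of the factors in place of 43.

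Of the 45 factors with a read in either library, 36 had more in the dKO-labelled library, where 73.2% of all such genes did, and 6 had fewer, where 22.2% did. These counts of direction before scaling are thus near those of all genes. Over all 54, summed reads numbered 67 and 335 in the control and the dKO-labelled library, for a scaled ratio of 4.51 (3.46 to 5.95), where all genes together gave 1.23. It became 2.89 with upper-quartile scaling and 2.90 when the read taken off each value was kept. Without Pitx1, the factor with the most reads, the ratio was 4.03 (3.06 to 5.37). The plot of reads by gene shows each factor in both libraries.

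**Figure D1:**
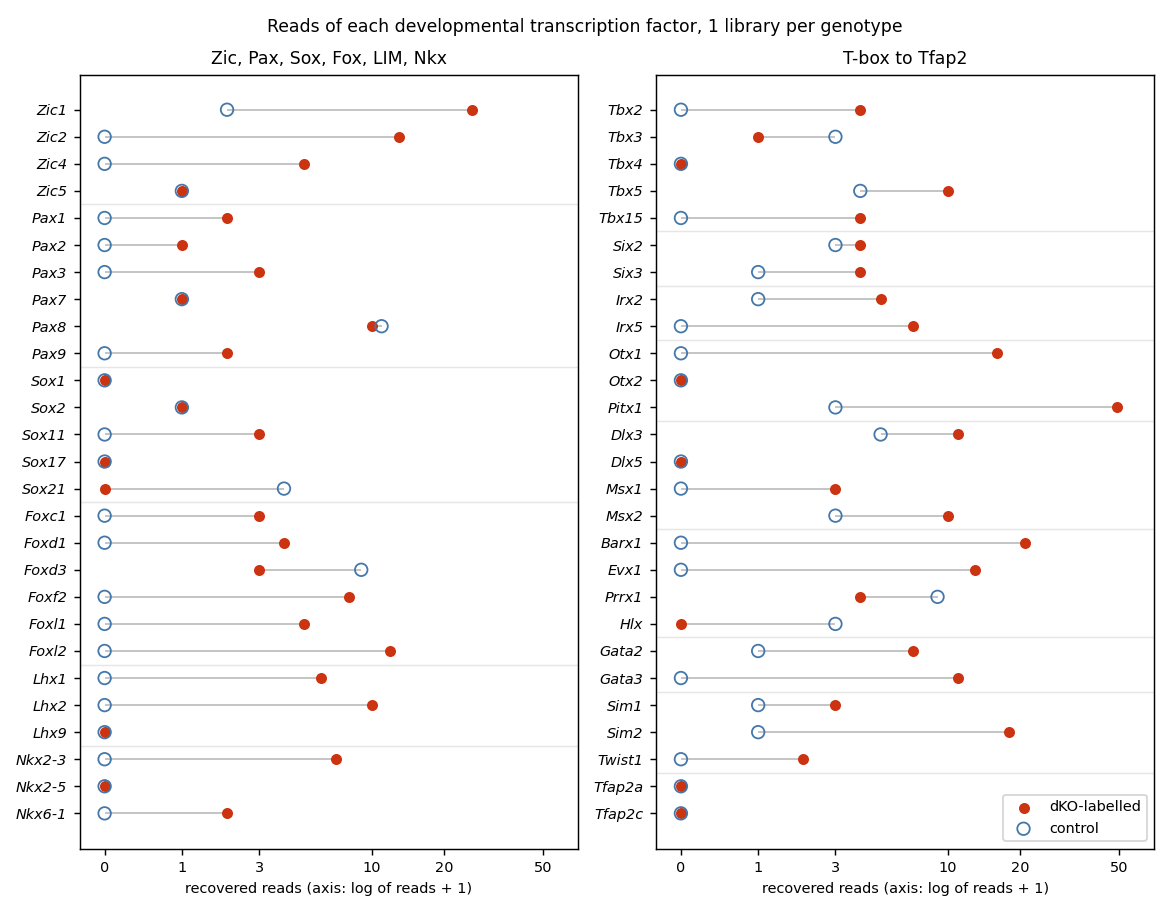
Recovered reads of the 54 factors (log axis of reads + 1), with open circles for the control and filled circles for the dKO-labelled library, in family order with 1 library each. Pitx1 (3 and 49), Zic1 (2 and 26) and Barx1 (0 and 21) lie farthest right, and Sox21, Foxd3, Tbx3, Prrx1, Hlx and Pax8 have the filled circle on the left.

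A gene was called near-silent in the control at no more than 3 normalised reads there, which is 0 or 1 recovered read, and detected at 10 or more normalised reads in the other library. Of 42 near-silent factors 8 (19.0%) were detected in the dKO-labelled library, against 2.47% of all near-silent genes. They were Barx1, Sim2, Otx1, Evx1, Zic2, Foxl2, Gata3 and Lhx2. In the other direction the count was 0 of 20, where the share over all genes was 0.441%. Just outside the rule lay Zic1, with 2 control reads, and Foxf2, with 8 reads in the dKO-labelled library. The factors were listed with results of these libraries already known, so this share is no independent evidence. For a list of other genes of the same families, the count was 2 of 66 (3.03%), near that of all genes. For both lists together it was 10 of 108 (9.26%). The list of other genes was also made with earlier results known and does not hold every gene of these families. By formula, at the depth of the control 4.47 of the 42 factors would be expected at 10 or more reads (10.6%), against 1.55% of all genes.

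Shares were also taken over the factors with 0 control reads, which are mostly the same genes, so they are no separate check. Of the factors with 0 control reads, 13 of 34 (38.2%) had 5 or more reads in the dKO-labelled library, against 4.98% of all genes, and 7 (20.6%) had 10 or more, against 1.47%. Among the other family genes these numbers were 3 and 2 of 55. The 2 were Sox12 (0 and 18 reads) and Isl2 (0 and 17), named after their values were seen.

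**Figure D2:**
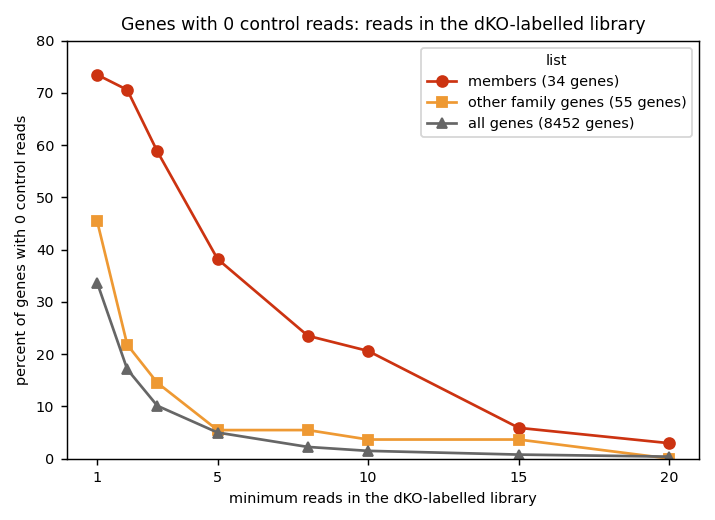
Percent of genes with 0 control reads (vertical axis) that reach a minimum number of reads in the dKO-labelled library (horizontal axis), for the 34 factors, 55 other genes of their families and 8452 genes in all. The factors start at 73.5% for 1 read and lie at 20.6% for 10 reads, where all genes lie at 1.47%, and the other family genes at 3.64%.

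Few of these genes were abundant enough for a rule on fold. Pitx1 alone passed a mean of 20 normalised reads. It was at least 2-fold higher on the log2 scale of normalised reads + 1 (log2 ratio 3.22). Of all measured genes 26.2% reached that size in that direction and 4.18% in the other. With 4.21 and 47.5 normalised reads, Pitx1 passed the mean only through the dKO-labelled library, so its call as higher followed from the filter. At 10 or more reads in either library there were 14 factors. Pax8 alone reached that number in the control, so the others were kept for their reads in the dKO-labelled library, and no count or median over them is given. Each kept its sign under the 5 scalings tried. These shift every log2 ratio alike, the largest shift being -0.64, so a kept sign is no support for a direction. The unadjusted DESeq p-values deposited by the authors rest on 1 library per genotype, with no replicate behind them, so no count by them is given.

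The Otx and Pitx homeobox genes had the most reads. Pitx1, which specifies the hindlimb and acts in the pituitary, had 3 control reads and 49 in the other library, which is a ratio of 14.7 (4.75 to 73.8). Otx1, a regulator of the forebrain and inner ear, had 0 and 16 reads, at least 4.81-fold higher when the control is set to the limit of 3 reads that a count of 0 allows. The lower limit of its counting interval, which also covers the error of the dKO reads, was 3.48, and this limit stands in brackets for the other factors with 0 control reads. Its relative Otx2, which acts in the anterior brain and eye, had 0 reads in both libraries. This pair of paralogs thus differed in detection within the same villi. A gene on the other strand (Gm47071) overlaps an exon of Pitx1, and without a stated strand setting the reads of such partners cannot be told apart. The same holds for 16 of the 54 factors, and without them the summed ratio was 4.02 (2.88 to 5.74).

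Zic genes encode zinc finger proteins of the neural tube and cerebellum. Zic1 had 2 and 26 reads, a ratio of 11.7 (2.93 to 102). Zic2 had 0 and 13, at least 3.91-fold higher (2.75), and Zic4 had 0 and 5. Zic5 had 1 read in each library. Zic1 and Zic4 are adjacent genes with overlapping exons, and both had more reads in the dKO-labelled library, whereas of the adjacent pair Zic2 and Zic5 only Zic2 did. The 4 genes together had 3 and 45 reads, a ratio of 13.5 (4.34 to 68.0).

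The 4 homeobox genes Barx1, Evx1, Hlx and Prrx1 went different ways. Barx1, a factor of the embryonic stomach mesenchyme, had 0 control reads and 21 in the other library, at least 6.31-fold higher (4.69). Evx1, a factor of the posterior embryo and spinal cord, had 0 and 13 reads, at least 3.91-fold higher (2.75), and has an antisense neighbour, Evx1os. Prrx1, a factor of limb and connective tissue mesenchyme, had 9 and 4 reads, and Hlx, which acts in gut and liver mesenchyme, had 3 and 0. Beside Barx1, 5 marker genes of the stomach lining had 6 and 7 reads in all, a ratio of 1.05 (0.303 to 3.79).

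Among the basic helix-loop-helix genes, Sim2 had 1 and 18 reads, a ratio of 16.2 (2.56 to 676), with an upper limit left wide by the single control read. Sim1, a regulator of hypothalamic neurons, had 1 and 3 reads. Twist1, a mesenchymal factor, had 0 and 2.

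Of the 6 forkhead genes, 5 had more reads in the dKO-labelled library, where 73.2% of all genes with a read in either library did. Foxl2, the factor that maintains granulosa cells of the ovary, had 0 and 12 reads, at least 3.61-fold higher (2.50). Its antisense partner Foxl2os, which has a row of its own, had 0 and 4. Foxf2 and Foxl1, factors of the gut mesenchyme beneath the epithelium, had 0 and 8 and 0 and 5 reads. Foxd1 had 0 and 4 and Foxc1 0 and 3. Foxd3, a neural crest factor, had fewer reads in the dKO-labelled library, with 9 and 3. The neighbours Foxf2 and Foxc1 were both without a control read.

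Of the LIM homeobox genes, Lhx2, a factor of forebrain, eye and hair follicle, had 0 and 10 reads, at least 3.00-fold higher (2.02). Lhx1, known from the kidney and the head organiser, had 0 and 6, and Lhx9 had 0 in both. Among the Nkx genes, Nkx2-3, which acts in gut and spleen mesenchyme, had 0 and 7 reads, and Nkx6-1, a beta cell and motor neuron factor, 0 and 2. The heart factor Nkx2-5 had 0 in both libraries. None of these 3 LIM and 3 Nkx genes had a control read, and Lhx9 and Nkx2-5 had none in the dKO-labelled library either.

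Gata3, a factor of T cells, kidney and skin, had 0 and 11 reads, at least 3.31-fold higher (2.26). Gata2, which acts in blood progenitors, had 1 and 7. Because Gata3 marks lymphocytes, the immune list is given beside it. Of 8 markers 7 had more dKO reads, where 73.2% of all genes with a read in either library did. The list had 130 and 216 reads, a ratio of 1.50 (1.20 to 1.88), where all genes together gave 1.23. The median log2 ratio of genes with a mean of at least 20 was 0.51. The leukocyte gene Ptprc had 0 reads in both libraries and the T cell gene Cd3g 7 and 17. The part of immune cells in the Gata3 reads was not tested. Irx5 had 0 and 7 reads and Irx2, of the same homeobox family, 1 and 5.

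Among the T-box, Dlx and Msx genes, the 3 with 10 reads or more also had some in the control. Tbx5, a forelimb and heart factor, had 4 and 10 reads, a ratio of 2.25 (0.650 to 9.84). Dlx3, which acts in skin and placenta, had 5 and 11, a ratio of 1.98 (0.635 to 7.28), and Msx2 had 3 and 10, a ratio of 3.00 (0.774 to 17.0). In each case the interval includes 1. Tbx2 and Tbx15 had 0 and 4 reads, Msx1 had 0 and 3, Tbx3 had 3 and 1, and Tbx4 and Dlx5 had none. The nephron factor Six2 had 3 and 4 reads and the forebrain factor Six3 1 and 4.

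The summed reads of the Pax and Sox genes did not show the high ratio of the Zic genes. Pax8, a thyroid and kidney factor, had 11 control reads and 10 in the other library, a ratio of 0.819 (0.312 to 2.13). The other Pax genes stayed at 3 reads or fewer in either library: Pax3 had 0 and 3, Pax1 and Pax9 0 and 2, Pax2 0 and 1, and Pax7 1 and 1. Together the 6 Pax genes had 12 and 19 reads, a ratio of 1.43 (0.658 to 3.22), and Pax8 gave 11 of the 12 control reads. The 4 Pax genes with 0 control reads all had a read in the dKO-labelled library, as had the 2 such Zic genes. Of all genes with 0 control reads, 33.7% had one. Sox genes had 5 and 4 reads over 5 members, a ratio of 0.721 (0.143 to 3.35). Sox2, a factor of neural and foregut progenitors, had 1 read in each library, Sox11 had 0 and 3, Sox21 had 4 and 0, and Sox1 and Sox17 had none.

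No read was found in either library for 9 factors: Sox1, Sox17, Lhx9, Nkx2-5, Tbx4, Otx2, Dlx5, Tfap2a and Tfap2c. A count of 0 allows up to 3 reads, so expression below that limit was not detectable at this depth. Tfap2a and Tfap2c are factors of neural crest and trophoblast, and Tfap2b, outside the list, had 0 and 1 reads.

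**Figure D3:**
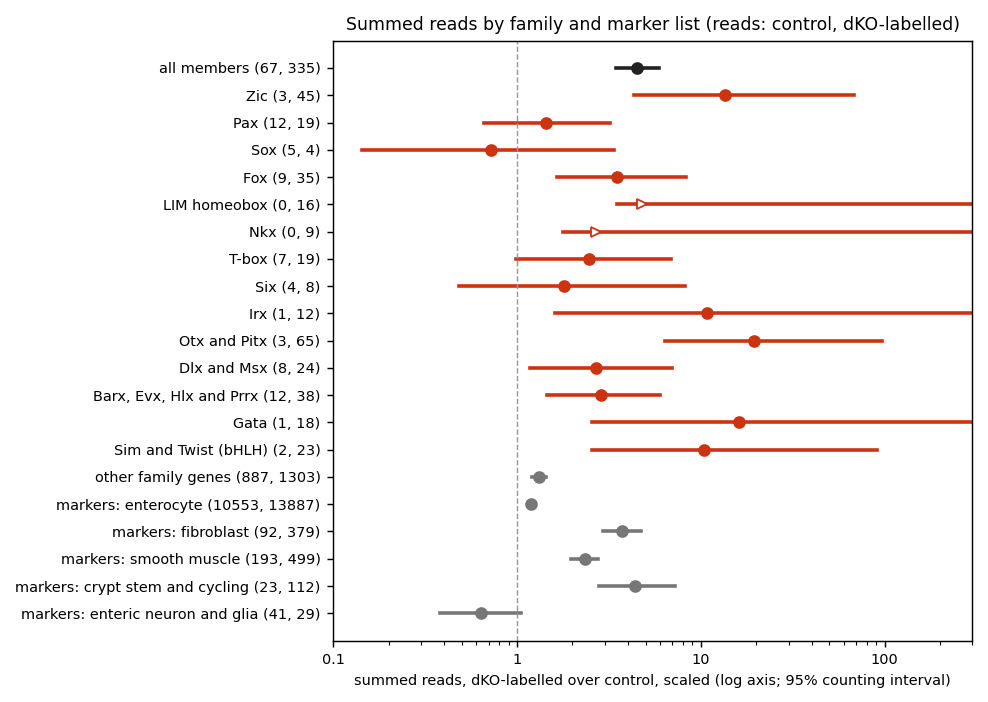
Ratio of summed reads, dKO-labelled over control, scaled by the deposited size factors (log axis), for the factors, each family, other family genes and marker lists, with 95% counting intervals and the reads of both libraries in brackets. Open triangles are lower bounds from 3 control reads where the control had 0. The factors as a whole lie at 4.51, Zic at 13.5, Sox at 0.721, and other family genes at 1.32. The fibroblast and crypt lists lie at 3.71 and 4.39.

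The list of other genes of these families, which does not hold all of them, had 85 genes with a row, of which 55 had 0 control reads. Of the 85, 10 passed a mean of 20, of which 2 were at least 2-fold higher and 0 lower (26.2% and 4.18% over all genes). The 2 were Barx2 and Foxq1. With 10.5 and 63.6 normalised reads, Barx2 passed the mean only through the dKO-labelled library, so its call as higher followed from the filter. Foxq1 had 30.5 in the control. Barx2, the paralog of Barx1, had 9 and 66 reads, a ratio of 6.61 (3.28 to 15.1), and Foxq1, a forkhead gene, 28 and 70, a ratio of 2.25 (1.43 to 3.63). Gata4 had 132 and 188 reads (1.28, 1.02 to 1.62), Gata6 121 and 119 (0.886, 0.682 to 1.15) and Gata5 72 and 149 (1.87, 1.40 to 2.51). Sox13 had 241 and 289 reads, Sox9 104 and 110, Foxa3 69 and 80, and Foxa1 21 and 35, each with an interval that includes 1. Lhx5 had 11 and 27 reads, Sox4 18 and 27, and Tbx18 12 and 26. Summed, the 85 genes had 887 and 1303 reads, a ratio of 1.32 (1.21 to 1.44).

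Levels were compared between genes as scaled reads per kb of transcript. In the dKO-labelled library Pitx1 stood at 19.0 and Barx1 at 14.3, followed by Zic1 at 8.78, Otx1 at 5.45 and Zic2 at 5.06. On the same scale Gata4 stood at 52.9, Gata6 at 34.9, Barx2 at 31.8 and Sox9 at 25.3. Foxq1 stood at 13.7, Foxa1 at 10.4 and Foxa2 at 3.57, so Pitx1 and Barx1 lay below some genes of these families that had reads in control villi and above others. In the control Pitx1 stood at 1.29 and Barx1 and Otx1 at 0, while Gata4 and Sox9 stood at 41.2 and 26.5.

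**Figure D4:**
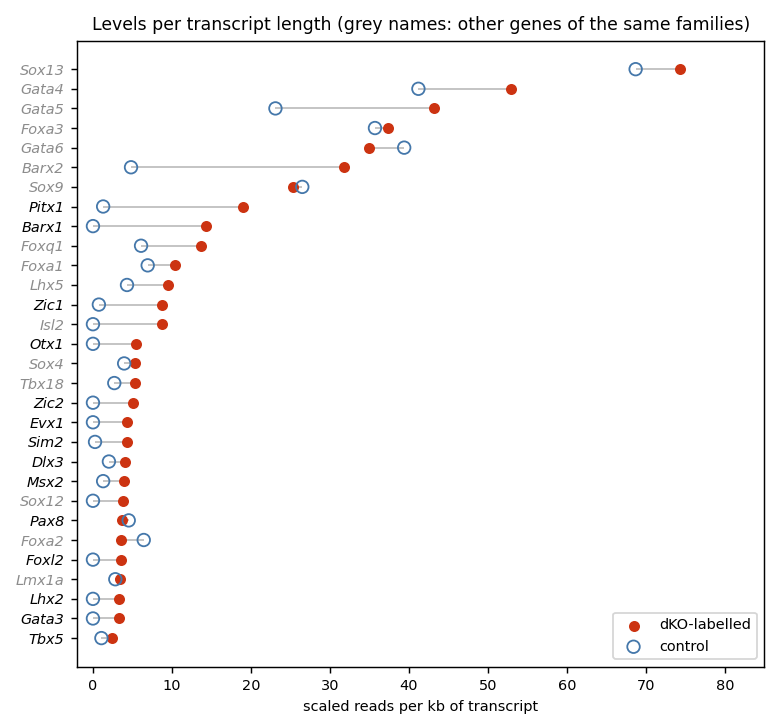
Scaled reads per kb of transcript (linear axis) for each factor (black names) and each other family gene (grey names) with 10 or more reads in either library, with open circles for the control and filled circles for the dKO-labelled library. Pitx1 at 19.0 and Barx1 at 14.3 are the highest of the factors, below Gata4 at 52.9.

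Markers of other cells differed between the libraries. In bulk RNA a larger share of cells of a type and more RNA per cell cannot be told apart. Beside the counts and ratios below, 73.2% of all genes with a read in either library had more dKO reads. All genes together gave a ratio of 1.23. All 7 detected fibroblast markers of 8 had more dKO reads, 92 and 379 in all, a ratio of 3.71 (2.95 to 4.72), with Dcn at 0 in both. So had all 7 smooth muscle markers, 193 and 499 in all (2.33, 1.97 to 2.77), with Myh11 at 0 and 1. All 6 crypt stem and cycling markers had more, 23 and 112 in all (4.39, 2.78 to 7.21). Of the 7 enteric neuron and glia markers 3 had more and 1 fewer, 41 and 29 reads in all (0.638, 0.382 to 1.05), or 8 and 12 without Ret (1.35, 0.508 to 3.81). Of the 7 endothelial markers 4 had more and 2 fewer, 66 and 55 reads in all (0.751, 0.515 to 1.09), or 18 and 50 without Tie1 (2.50, 1.44 to 4.56). Both were left out after their values were seen, since Ret had 33 and 17 reads and Tie1 48 and 5. Mesothelial markers had 13 and 34 reads, a ratio of 2.36 (1.21 to 4.87). All 10 enterocyte markers had more dKO reads and gave 1.19 (1.16 to 1.22) in sum. Single ones ran from 0.906 (0.844 to 0.973) for Apoa1 to 8.70 (6.19 to 12.6) for Sis. Foxf2, Foxl1, Nkx2-3, Barx1 and further factors are known from mesenchyme, and the part of stromal or crypt cells in their reads was not tested. A split made after the values were seen gave 24 factors known from gut, limb, muscle or body wall mesenchyme, with 29 and 154 reads (4.79, 3.20 to 7.39). The remaining 30 factors, of brain, kidney, gonad, skin and other tissues, had 38 and 181 reads, a ratio of 4.29 (3.01 to 6.26). The part of other cells in the reads was not tested in either group.

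Promoter CG content was set beside the reads of the dKO-labelled library. The median was 20.5 CG dinucleotides over 8 matched factors with 10 or more reads there, 17 over 23 with 1 to 9 reads and 9 over 8 with 0. The groups overlapped, since Pax8 had 6 CG dinucleotides with 10 reads and Sox1 had 29 with 0. The GC box was in 7 of 8, 13 of 23 and 3 of 8 of these promoters. Of the promoters printed above, that of Evx1 was the poorest in CG, with 13 reads. With 8 genes in each outer group this is a description only.

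**Figure D5:**
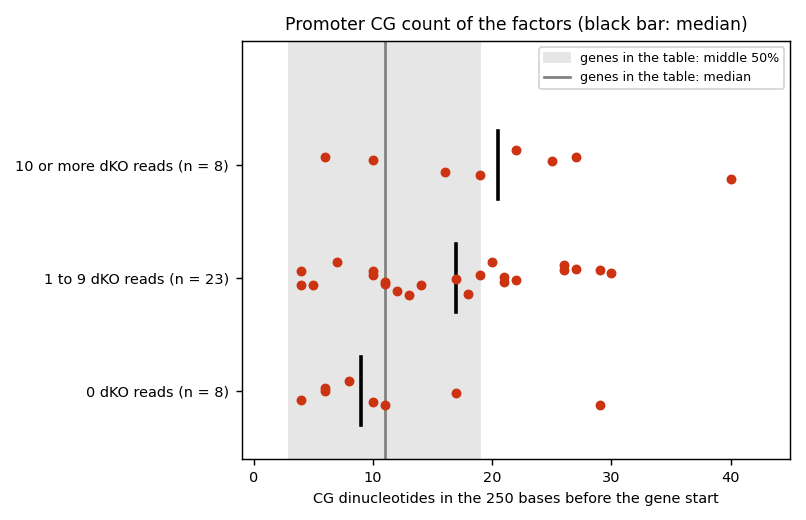
CG dinucleotides in the 250 bases before the gene start (horizontal axis) for 39 factors, grouped by reads in the dKO-labelled library, with black bars at the medians of 9, 17 and 20.5. The grey line is the median of 11 over the matched genes of the table and the grey band their middle part, and points of all 3 groups fall inside it.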

How the data were processed

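RNA from small-intestinal villi was made into libraries with a TruSeq RNA v2 kit, per the labels, and the submitters' processing notes name TopHat, DESeq and mm9. How reads were counted, and with which strand setting, is not given in the sources used here. Values deposited as signal are normalised counts of 22040 RefSeq transcripts (DESeq base means, per the file headers). The deposited fold ratio and log2 columns are their quotient and its log2, and the p-value column is the authors', unadjusted. Every value (100%, within 0.001 of a step) is a whole multiple of its column's smallest, 1.0533 and 0.9494, and none is 0. That smallest value covers 42.6% and 34.9% of rows, so reads were taken as steps minus 1, an inference that no label states. Here log2 ratios use a pseudocount of 1. A count test was not run, since 1 library per group leaves no residual degrees of freedom.

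The members and lists were chosen with earlier results of these data known. Reads are given for each factor with at least 5 in a library and folds at 10 or more, with 20 for other family genes. Transcript lengths came from GENCODE M21 and promoters from RefSeq (GRCm38.p6), not mm9, so no gene coordinates are converted. The functions were tested on simulated data. Software was Python 3.11.15 with scipy 1.17.1 and, for TMM scaling, edgeR 4.0.16 (R 4.3.3). Alternatives were 4 scalings, pseudocount 5, other limits and filters, and summed rows.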

Additional observations from a re-analysis of the deposited data

How the results depend on the processing

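No paired analysis was possible because each genotype had 1 library, which also kept any library from being left out. Total-count, upper-quartile, TMM and median-zero scaling shift every log2 ratio by -0.30, -0.64, -0.53 and -0.51. The summed ratio of 4.51 became 2.89 with the upper quartile, 3.13 with TMM, 3.17 with the median set to 0 and, in a setting added after seeing the data, 2.90 when the added read was kept. The 8 near-silent factors detected became 5 with the upper quartile, 1 at 20 normalised reads, 16 at 5, 4.47 expected at the control depth and, also added later, 13 at 5 reads against 0. The single factor at least 2-fold higher became 4 at a mean of 10 and 26 with no filter. Without a filter 4 were lower in place of 0. The 4 at a mean of 10 were Pitx1, Zic1, Barx1 and Sim2, which passed it only through the dKO-labelled library. Shares of all genes were not computed at these settings, so these counts are no result about the factors. The median log2 ratio of 3.22 (Pitx1 alone) became 0.91 over all 54, where all genes gave 0.10. The 2 other family genes at least 2-fold higher became 1 under each of the 4 scalings, 11 with no filter and 4 by counting interval. Fewer or more genes tested accounts for the filters, and the uniform shifts given above account for the scalings. For the other settings the cause was not tested. The remaining 36 of 55 settings kept their value within the counting interval or 1.5 times, among them the removal of mesenchymal factors (4.29), of Pitx1 (4.03) and of factors overlapped on the other strand (4.02). Many of the 36 belong to the counts of factors 2-fold higher or lower and to the median, which rest on Pitx1 alone. Those could hardly move, so the 36 do not measure how stable the list is. Of the ratios of single factors, only that of Barx1 left its interval, at 2.10 on the log2 scale with pseudocount 5. At these depths a gene with under 3 reads cannot be told from a silent one.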
